A study of Homo sapiens with 12 samples.

Results

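The human mitochondrial genome encodes 13 mRNAs, 2 rRNAs and 22 tRNAs, and this account follows those 37 genes in HCT116, a human cell line grown from a colorectal carcinoma. The cells were exposed to dolastatin 15, a peptide first found in a sea hare, which attaches to tubulin and stops microtubules from forming. The members were the genes whose GENCODE 29 symbol begins with MT-, 37 of 58174 genes in the deposited table, all of them on chromosome M. At 24 h, libraries 11 and 12 were solvent (DMSO), 7 and 8 were 20 nM and 9 and 10 were 100 nM. At 16 h, libraries 5 and 6 were solvent, 1 and 2 were 20 nM and 3 and 4 were 100 nM. All groups, solvent included, had 0.25% DMSO and 5% serum, and the 12 libraries were made from poly(A)-selected RNA. The labels call the 2 samples of a group duplicates without naming them separate cultures. The spread behind each p-value is therefore that of these samples alone and could be technical. The solvent libraries of a time serve both doses at that time.

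The proteins made from mitochondrial mRNAs are membrane subunits of the respiratory chain and of ATP synthase, and they work together with subunits encoded in the nucleus. Each strand of the circle is copied into a long precursor RNA by the polymerase POLRMT with its factors TFAM and TFB2M. The rRNA genes lie nearest the start of heavy-strand transcription. Cleavage at the tRNAs releases the single RNAs, MTPAP adds poly(A) tails to most mRNAs, the LRPPRC-SLIRP pair protects heavy-strand mRNAs, and SUPV3L1 with PNPT1 degrades mitochondrial RNA. Because poly(A) selection catches RNAs with short or missing tails incompletely, the levels of the rRNAs and of MT-ND6, whose mRNA lacks a tail, depend on that step.

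Among epithelial genes, EPCAM (251 to 335 FPKM) and KRT8 (410 to 458 FPKM) were high in every library, while CDH1 was low (2.91 to 3.92 FPKM). The leukocyte genes PTPRC, CD3E and LYZ stayed at or under 0.11 FPKM, the fibroblast gene COL1A1 stood at 1.44 to 4.34 FPKM, and the endothelial genes PECAM1, VWF and CDH5 at or under 0.30 FPKM. FPKM, fragments per kilobase of transcript and per M (mega) mapped fragments, was the deposited unit. Low values of single-transcript genes fell on steps of whole fragments, from which 28.4 M to 41.9 M mapped fragments per library and mean fragment lengths of 309.2 to 344.7 nt were estimated. All 22 tRNA genes, 59 to 75 nt long, were listed at 0 in every library, and all are shorter than the mean fragment of each library.

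The overlapping reading frames of MT-ATP8 and MT-ATP6 are shown because length decides how their values must be read. Both subunits belong to the membrane part of ATP synthase and are translated from 1 shared mRNA. MT-ATP8 (chrM:8366-8572, GRCh38, plus strand, 207 nt) and the first 80 bases of MT-ATP6 (chrM:8527-9207, plus strand, 681 nt) share 46 bases, in capitals. MTATP8P1, a nuclear copy on chromosome 1 (633535 to 633741, plus strand), is set below them with its 5 differing bases in capitals. All 3 sequences are from the GENCODE 29 transcripts.
MT-ATP8: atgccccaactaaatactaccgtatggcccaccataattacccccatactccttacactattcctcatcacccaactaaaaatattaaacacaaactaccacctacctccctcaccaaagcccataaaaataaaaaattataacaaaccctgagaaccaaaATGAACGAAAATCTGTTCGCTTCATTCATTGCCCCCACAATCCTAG
MT-ATP6: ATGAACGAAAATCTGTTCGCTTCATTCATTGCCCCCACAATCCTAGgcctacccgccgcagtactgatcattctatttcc
MTATP8P1: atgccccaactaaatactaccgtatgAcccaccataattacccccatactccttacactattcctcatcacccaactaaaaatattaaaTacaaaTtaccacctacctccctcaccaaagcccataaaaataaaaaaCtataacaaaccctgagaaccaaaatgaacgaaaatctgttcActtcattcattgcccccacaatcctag

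MT-ATP8 had by far the highest FPKM of the 15 mitochondrial genes with values, and almost none of the fragments. At 24 h it stood at 69910.2 and 74112 FPKM in solvent, 117350.4 and 131549.8 FPKM at 20 nM and 71527 and 86057 FPKM at 100 nM. The values at 16 h were 97106 and 95300.5 FPKM in solvent, 86925 and 87042 FPKM at 20 nM and 94228 and 111567 FPKM at 100 nM. These levels were 5.45 to 8.05 times those of MT-ATP6, although the reading frames sit on the same mRNA. RSEM divides by an effective length, the number of places where a fragment can start, and for this gene that length was estimated at 1.22 to 2.52 nt per library with normally distributed fragment lengths. MT-ATP8 therefore held 7.31% to 12.5% of the FPKM sum but 0.0118% to 0.0219% of the mapped fragments, an estimated 3775 to 9186 fragments per library. MT-ATP6 had 130231 to 214227. The effective length was estimated from the tail of the fragment lengths, and lognormal lengths gave 0.448 to 1.29 nt and 1640 to 4430 fragments for MT-ATP8.

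**Figure D1:**
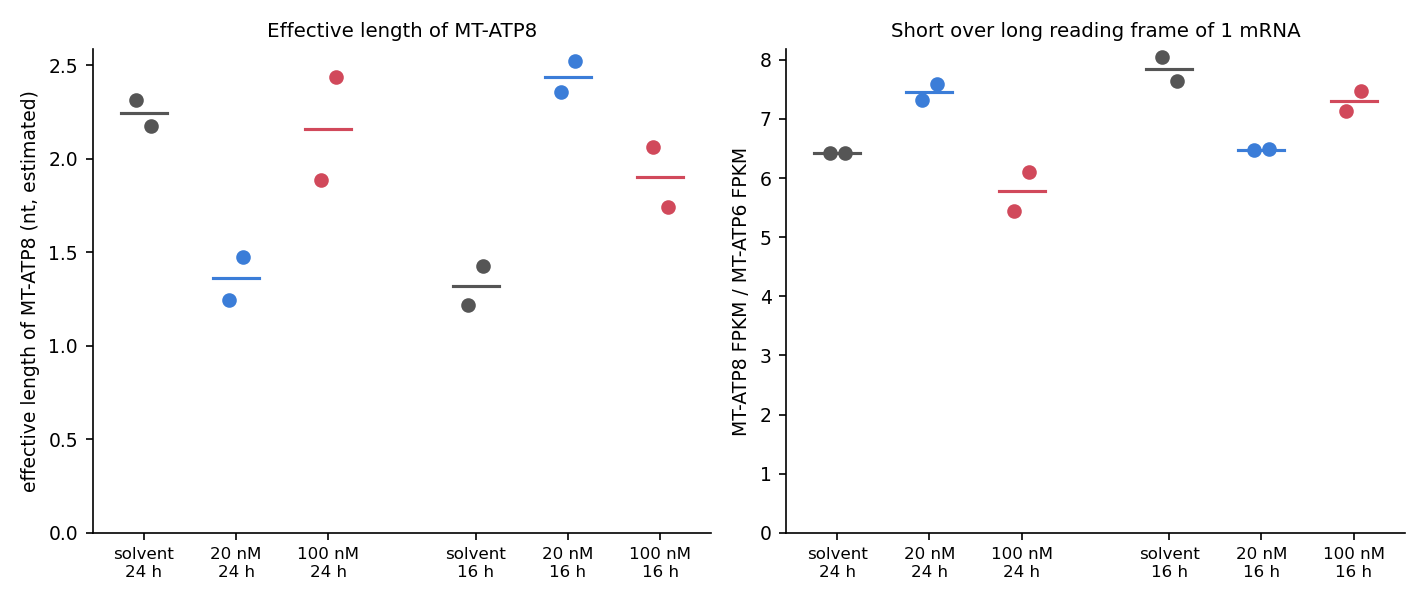
Left, the estimated effective length of MT-ATP8 in nt for each library; right, the ratio of MT-ATP8 to MT-ATP6 FPKM. Points are libraries and lines are means of 2 libraries. Effective lengths ran from 1.22 to 2.52 nt, and the ratio from 5.45 to 8.05.

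The size of the MT-ATP8 change against solvent depended on this division, and at 20 nM and 16 h so did its direction. On the FPKM scale its log2 change against solvent at 24 h was 0.79 at 20 nM (SE 0.10, limma, Benjamini-Hochberg adjusted p = 0.000903) and 0.12 at 100 nM (SE 0.10, adjusted p = 0.384). The 16 h change was -0.15 at 20 nM (SE 0.10, adjusted p = 0.369) and 0.09 at 100 nM (SE 0.10, adjusted p = 0.563). Taking the division by effective length back, with normal fragment lengths, gave log2 changes of 0.06 and 0.06 at 24 h (adjusted p = 0.838 at 20 nM and 0.842 at 100 nM). At 16 h it gave 0.74 and 0.62 (adjusted p = 0.0272 at 20 nM and 0.0438 at 100 nM). Both scales rest on the same fragments, and neither is a direct measure of the RNA. The second depends on the assumed fragment lengths as well. With normal lengths MT-ATP8 held 0.0146% and 0.0194% of mapped fragments at 20 nM and 24 h, against 0.0162% and 0.0161% in solvent. With lognormal lengths it held 0.00526% and 0.00854%, against 0.00873% and 0.00739%.

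MT-ND4L and MT-ND3, short subunit genes of complex I, the enzyme that takes electrons from NADH, were affected in the same way though less. MT-ND4L (chrM:10470-10766, 297 nt) overlaps MT-ND4 (chrM:10760-12137, 1378 nt), another complex I subunit, by 7 bases. Its last 60 bases and the first 60 of MT-ND4 are printed with the shared bases in capitals, both on the plus strand of GRCh38.
MT-ND4L: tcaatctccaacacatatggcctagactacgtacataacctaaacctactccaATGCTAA
MT-ND4: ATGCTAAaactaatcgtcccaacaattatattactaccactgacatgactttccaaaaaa

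The effective length is short for these genes too. The FPKM of MT-ND4L was 1.88 to 2.33 times that of MT-ND4, although this pair of reading frames also shares an mRNA, and its estimated effective length was 13.03 to 22.83 nt. At 24 h MT-ND4L stood at 13350.5 and 14039 FPKM in solvent, 19494 and 24601 FPKM at 20 nM and 16133 and 17583 FPKM at 100 nM. Libraries 7 and 8 were both above all others at that time, and library 8 was the highest. MT-ND4L rose at 20 nM and 24 h (log2 change 0.68, SE 0.11, limma, adjusted p = 0.0021), and with the division taken back its log2 change was 0.21 (adjusted p = 0.495). At 100 nM and 24 h its log2 change of 0.30 did not pass (adjusted p = 0.0556), nor did those of 0.11 and 0.10 at 16 h. For MT-ND3 (chrM:10059-10404, 346 nt, effective length 32.1 to 50.8 nt) the values at 24 h were 4555 and 4619 FPKM in solvent, 5907 and 4834 FPKM at 20 nM and 5478 and 5681 FPKM at 100 nM. MT-ND3 rose at 100 nM and 24 h (log2 change 0.28, SE 0.08, adjusted p = 0.0214), a call that ended without any of libraries 9 to 12 (adjusted p 0.0649 to 0.104) and with the division taken back (log2 change 0.26, adjusted p = 0.143). At 16 h its log2 changes of 0.12 at 20 nM and 0.21 at 100 nM did not pass, and with the division taken back the first was 0.54 (adjusted p = 0.0177).

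Among all genes, mitochondrially encoded RNA held 17.9% to 25.8% of the FPKM sum, and 5.63% to 7.996% of the mapped fragments when each gene was weighted by its estimated effective length. The share of mapped fragments at 24 h was 5.74% ± 0.163 in solvent, 7.76% ± 0.333 at 20 nM and 6.80% ± 0.370 at 100 nM (SD, n = 2 each). The 16 h share was 6.80% ± 0.400 in solvent, 7.37% ± 0.0648 at 20 nM and 7.40% ± 0.411 at 100 nM. All treated libraries at 24 h lay above both solvent libraries of that time, and at 16 h each treated library lay above both solvent libraries as well, library 3 by the least (7.11%, against 7.08% in library 6). In contrast, the share of the FPKM sum at 16 h overlapped between the groups, with 21.9% ± 0.400 in solvent, 21.8% ± 0.0150 at 20 nM and 23.3% ± 1.60 at 100 nM. The share of the FPKM sum at 24 h was 18.2% ± 0.441 in solvent, 24.8% ± 1.42 at 20 nM and 19.7% ± 1.35 at 100 nM. Without MT-ATP8 the share of the FPKM sum was 11.3% in solvent, 14.7% at 20 nM and 12.7% at 100 nM at 24 h (means of 2 libraries). At 16 h it was 13.2% in solvent, 14.0% at 20 nM and 14.3% at 100 nM without MT-ATP8, and treated libraries did not overlap solvent. These libraries hold RNA of whole cultures, so a change in the cells present and a change in RNA per cell cannot be told apart.

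**Figure D2:**
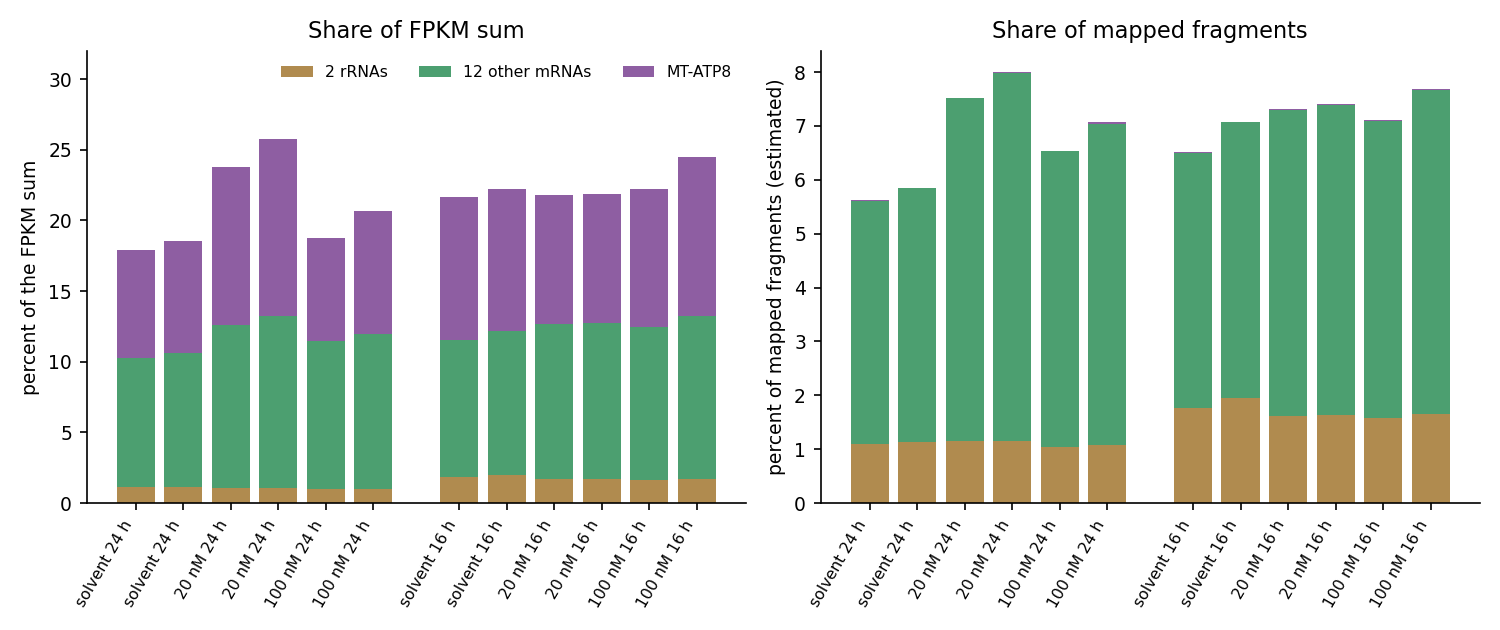
Stacked bars give, for each library, the share held by the 2 mitochondrial rRNAs, MT-ATP8 and the 12 other mRNAs, in percent of the FPKM sum (left) and in percent of mapped fragments estimated with normal fragment lengths (right). MT-ATP8 takes 7.31% to 12.5% of the left bars and 0.0118% to 0.0219% of the right ones, too thin to see.

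Of the 37 members, the 13 mRNAs and 2 rRNAs passed the filter of 1 FPKM in at least 2 libraries, in every library and group alike, and were tested with the other genes, 13458 in all. At 20 nM and 24 h, 12 mRNAs rose, none fell and 1 did not pass, where 28.8% of all tested genes were called and 14.7% were called higher. At 100 nM and 24 h, 9 rose, 0 fell and 4 did not pass, where 33.8% of all tested genes were called and 15.4% were called higher. At 20 nM and 16 h, 3 rose, 0 fell and 10 did not pass (17.7% of all tested genes called, 6.78% higher). At 100 nM and 16 h, 5 rose, 0 fell and 8 did not pass (23.8% called, 9.16% higher). The median log2 change of the 13 mRNAs was 0.57 at 20 nM and 0.30 at 100 nM at 24 h, beside 0.00 and -0.02 over all tested genes. The 16 h median was 0.13 at 20 nM and 0.21 at 100 nM, beside -0.02 and -0.03. Rescaling every library to a common FPKM sum, MT-ATP8 included, put the median of all tested genes at -0.16 at 20 nM and -0.11 at 100 nM at 24 h. It left 9 mRNAs called higher at 20 nM and 6 at 100 nM at that time. The shares of all tested genes called under that scaling are not given here, and those above do not apply to these counts. The calls lost there were MT-ND1, MT-ND2 and MT-CO3 at 20 nM and MT-CO1, MT-CO2 and MT-ND3 at 100 nM. With no filter on low values, MT-ND1, MT-ND2, MT-CO3 and MT-ATP8 no longer passed at 20 nM and 24 h, nor MT-CO1, MT-CO2, MT-ND3, MT-ND4 and MT-ATP6 at 100 nM and 24 h, nor MT-CO2 and MT-ND4 at 100 nM and 16 h. A common sum over nuclear genes alone ended MT-ND1 and MT-ND2 at 20 nM and MT-CO1 and MT-CO2 at 100 nM, both at 24 h.

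**Figure D3:**
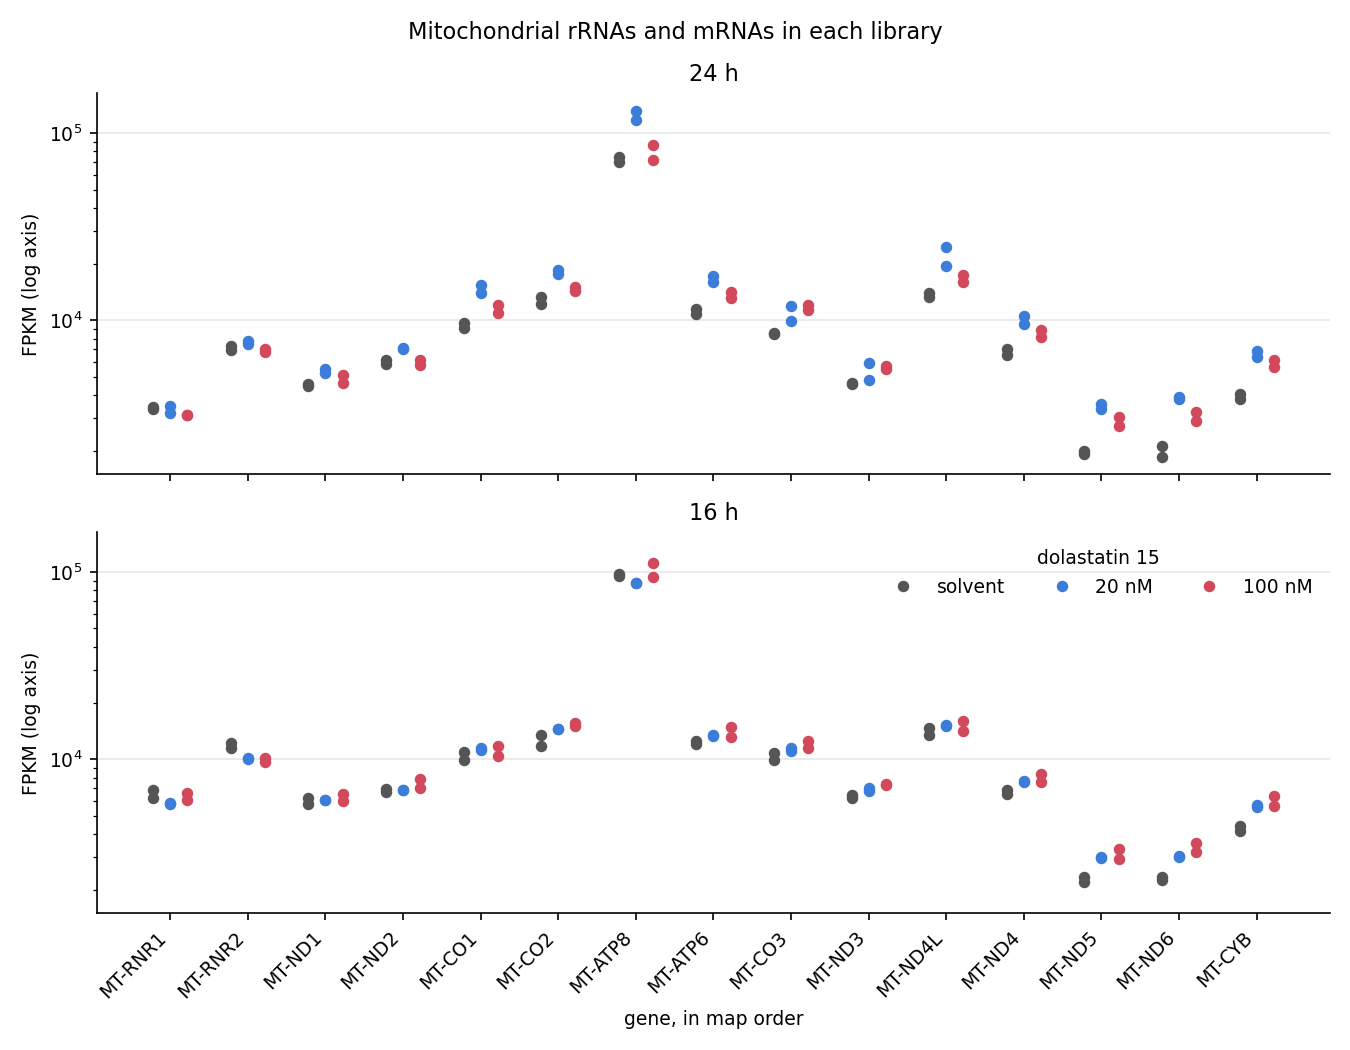
FPKM of the 13 mRNAs and 2 rRNAs on a log axis, in map order, with 1 point per library, for 24 h (top) and 16 h (bottom). At 24 h the treated points of MT-ND5, MT-ND6 and MT-CYB lie above both solvent points, and MT-ATP8 lies highest in every group.

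MT-CYB, MT-ND6 and MT-ND5 rose in all 4 comparisons with solvent. MT-CYB encodes cytochrome b, the electron-carrying membrane subunit of complex III (chrM:14747-15887). At 24 h it stood at 3830 and 4033 FPKM in solvent, 6347 and 6893 FPKM at 20 nM and 5647 and 6113 FPKM at 100 nM. Its values at 16 h were 4141 and 4391 FPKM in solvent, 5589 and 5695 FPKM at 20 nM and 5610.2 and 6393 FPKM at 100 nM. Treated and solvent libraries did not overlap at either time. The log2 changes at 24 h were 0.75 at 20 nM (SE 0.07, limma, adjusted p = 0.000211) and 0.58 at 100 nM (SE 0.07, adjusted p = 0.000483). At 16 h they were 0.40 at 20 nM (SE 0.07, adjusted p = 0.00581) and 0.49 at 100 nM (SE 0.07, adjusted p = 0.00153). None of these 4 calls was lost without any single library or in any other setting run.

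MT-ND5 encodes a large proton-pumping subunit of complex I (chrM:12337-14148) and had, with MT-ND6, the lowest FPKM of the mRNAs. At 24 h it stood at 1927 and 2013 FPKM in solvent, 3363 and 3600.03 FPKM at 20 nM and 2731 and 3044 FPKM at 100 nM. For 16 h the values were 2204 and 2362 FPKM in solvent, 2961 and 3001 FPKM at 20 nM and 2949 and 3336 FPKM at 100 nM. Every treated library was above both solvent libraries of its time. The log2 changes at 24 h were 0.82 at 20 nM (SE 0.07, limma, adjusted p = 0.000149) and 0.55 at 100 nM (SE 0.07, adjusted p = 0.000695). At 16 h they were 0.39 at 20 nM (SE 0.07, adjusted p = 0.00786) and 0.46 at 100 nM (SE 0.07, adjusted p = 0.00233), and the call at 20 nM ended without library 2 or 5 (adjusted p 0.0515 to 0.0613).

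MT-ND6, a further complex I subunit, is the only mRNA gene on the light strand (chrM:14149-14673, minus strand). At 24 h it stood at 1865 and 2134 FPKM in solvent, 3803 and 3910.5 FPKM at 20 nM and 2904 and 3261 FPKM at 100 nM. Libraries of 16 h had 2358 and 2262 FPKM in solvent, 3029 and 3061 FPKM at 20 nM and 3209.5 and 3575 FPKM at 100 nM. No treated library overlapped the solvent libraries of its time. It had the largest mRNA log2 change on the FPKM scale at 24 h, 0.95 at 20 nM (SE 0.08, limma, adjusted p = 0.000117) and 0.63 at 100 nM (SE 0.08, adjusted p = 0.000532). At 16 h the log2 change was 0.40 at 20 nM (SE 0.08, adjusted p = 0.00941), which ended without library 1, 2 or 6 (adjusted p 0.0513 to 0.0596), and 0.55 at 100 nM (SE 0.08, adjusted p = 0.00133). The ratio of MT-ND6 to the neighbouring MT-ND5 was 0.958 to 1.13 across the libraries. The library kit marks strand, but how strand was treated in counting is not given in the sources used here. Reads of MT-ND6 and of heavy-strand RNA opposite it cannot be told apart.

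The core subunits of complex IV, which passes electrons to oxygen, rose mainly at 24 h. MT-CO1, its catalytic subunit (chrM:5904-7445), stood at 9069.7 and 9709.5 FPKM in solvent, 14048 and 15388 FPKM at 20 nM and 11023 and 12077 FPKM at 100 nM at 24 h. All 4 treated libraries were above both solvent libraries, and those at 20 nM were the highest. MT-CO1 rose by 0.65 at 20 nM and by 0.30 at 100 nM (log2, SE 0.08 each, limma, adjusted p = 0.000673 at 20 nM and 0.0199 at 100 nM). The call at 100 nM ended without library 10 or 11 (adjusted p 0.113 to 0.124). At 16 h MT-CO1 stood at 9903 and 10912 FPKM in solvent, 11249 and 11522 FPKM at 20 nM and 10442 and 11849 FPKM at 100 nM, so that library 3 lay within the solvent range. Its log2 changes there were 0.13 at 20 nM and 0.10 at 100 nM and did not pass.

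MT-CO2, which receives electrons from cytochrome c (chrM:7586-8269), stood at 12191 and 13332 FPKM in solvent, 17657 and 18671 FPKM at 20 nM and 15126 and 14379 FPKM at 100 nM at 24 h. It rose by 0.51 at 20 nM (log2, SE 0.07, limma, adjusted p = 0.00124) and by 0.21 at 100 nM (SE 0.07, adjusted p = 0.0477), a call that ended without any of 8 libraries (1 to 4 and 9 to 12, adjusted p 0.0509 to 0.245). At 16 h it stood at 13553 and 11794 FPKM in solvent, 14547 and 14615 FPKM at 20 nM and 14996 and 15703 FPKM at 100 nM, and it rose at 100 nM (log2 change 0.28, SE 0.07, adjusted p = 0.0214), which ended without library 3, 4 or 6 (adjusted p 0.0522 to 0.131). The MT-CO2 change at 20 nM and 16 h was 0.21 (SE 0.07, limma, adjusted p = 0.0791), and with the division by effective length taken back 0.29 (adjusted p = 0.0117). Between the doses at 16 h the MT-CO2 difference was 0.07 and did not pass (limma, adjusted p = 0.728). MT-CO3, the third core subunit (chrM:9207-9990), stood at 8617 and 8454 FPKM in solvent, 11992 and 9982 FPKM at 20 nM and 11395 and 12068 FPKM at 100 nM at 24 h. Unlike most mRNAs, its log2 change at 24 h was not smaller at 100 nM (0.46, SE 0.08, limma, adjusted p = 0.00322) than at 20 nM (0.36, SE 0.08, adjusted p = 0.0121). The call at 20 nM ended without library 11 or 12 (adjusted p 0.0525 to 0.062), and the 16 h changes of 0.12 and 0.21 did not pass.

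MT-ATP6, the proton-channel subunit of ATP synthase, had an estimated effective length of 337 to 373 nt. At 24 h it stood at 10875 and 11524 FPKM in solvent, 16019 and 17344 FPKM at 20 nM and 13135 and 14108 FPKM at 100 nM. Treated libraries lay above solvent at both doses, and the log2 changes were 0.57 at 20 nM (SE 0.07, limma, adjusted p = 0.000536) and 0.28 at 100 nM (SE 0.07, adjusted p = 0.0118). The second ended without library 10 or 11 (adjusted p 0.0769 to 0.0837). At 16 h it stood at 12066 and 12481 FPKM in solvent, 13444 and 13398 FPKM at 20 nM and 13209 and 14925 FPKM at 100 nM. Treated libraries were above solvent there as well, but the log2 changes of 0.13 and 0.19 did not pass.

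MT-ND1 and MT-ND2, which lie just after the rRNA genes (chrM:3307-4262 and chrM:4470-5511), had log2 changes at 16 h of 0.01 and 0.01 at 20 nM and 0.06 and 0.11 at 100 nM, none of which passed. At 24 h MT-ND1 stood at 4493 and 4601 FPKM in solvent, 5513 and 5258 FPKM at 20 nM and 4664 and 5134 FPKM at 100 nM. MT-ND2 stood at 5837 and 6185.8 FPKM in solvent, 7113 and 7026 FPKM at 20 nM and 5786 and 6186.1 FPKM at 100 nM. Both rose at 20 nM (log2 changes 0.24 and 0.23, SE 0.06 each, limma, adjusted p = 0.0159 for MT-ND1 and 0.0163 for MT-ND2), and at 100 nM their values were 0.11 and -0.01. The MT-ND1 call ended without library 7, 11 or 12 (adjusted p 0.0536 to 0.0854) and the MT-ND2 call without library 7 or 11 (adjusted p 0.0538 to 0.106). MT-ND4, farther along, stood at 6578 and 7011 FPKM in solvent, 9569 and 10557 FPKM at 20 nM and 8133 and 8855 FPKM at 100 nM at 24 h. It rose at 24 h at 20 nM (log2 change 0.57, SE 0.07, adjusted p = 0.000653) and at 100 nM (0.32, SE 0.07, adjusted p = 0.00743, ended without library 10 or 11, adjusted p 0.0546 to 0.0583). At 16 h its log2 change was 0.19 at 20 nM, which did not pass, and 0.25 at 100 nM, which did (SE 0.07, adjusted p = 0.031, ended without library 4, 5 or 6, adjusted p 0.0727 to 0.172).

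Ordered along the heavy strand, the log2 changes were larger toward the end of the map in each comparison with solvent. The first 3 mRNAs, MT-ND1, MT-ND2 and MT-CO1, averaged 0.375 at 20 nM and 0.133 at 100 nM at 24 h. The last 3, MT-ND4, MT-ND5 and MT-CYB, averaged 0.712 at 20 nM and 0.484 at 100 nM at 24 h. At 16 h the first 3 averaged 0.050 at 20 nM and 0.089 at 100 nM, and the last 3 averaged 0.327 at 20 nM and 0.399 at 100 nM. Over the 12 heavy-strand mRNAs, Spearman's rho between position and log2 change was 0.49 at 20 nM and 0.87 at 100 nM at 24 h, and 0.59 at 20 nM and 0.71 at 100 nM at 16 h. Without MT-ATP8, MT-ND3 and MT-ND4L, the 3 shortest, it was 0.72, 0.92, 0.78 and 0.88 in the same order (9 genes). These are correlations across genes cut from the same precursor, in libraries that share solvent controls, and they describe the pattern without a test. With the division by effective length taken back, rho over the 9 genes was 0.75 at 20 nM and 0.92 at 100 nM at 24 h, and 0.87 at 20 nM and 0.88 at 100 nM at 16 h.

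**Figure D4:**
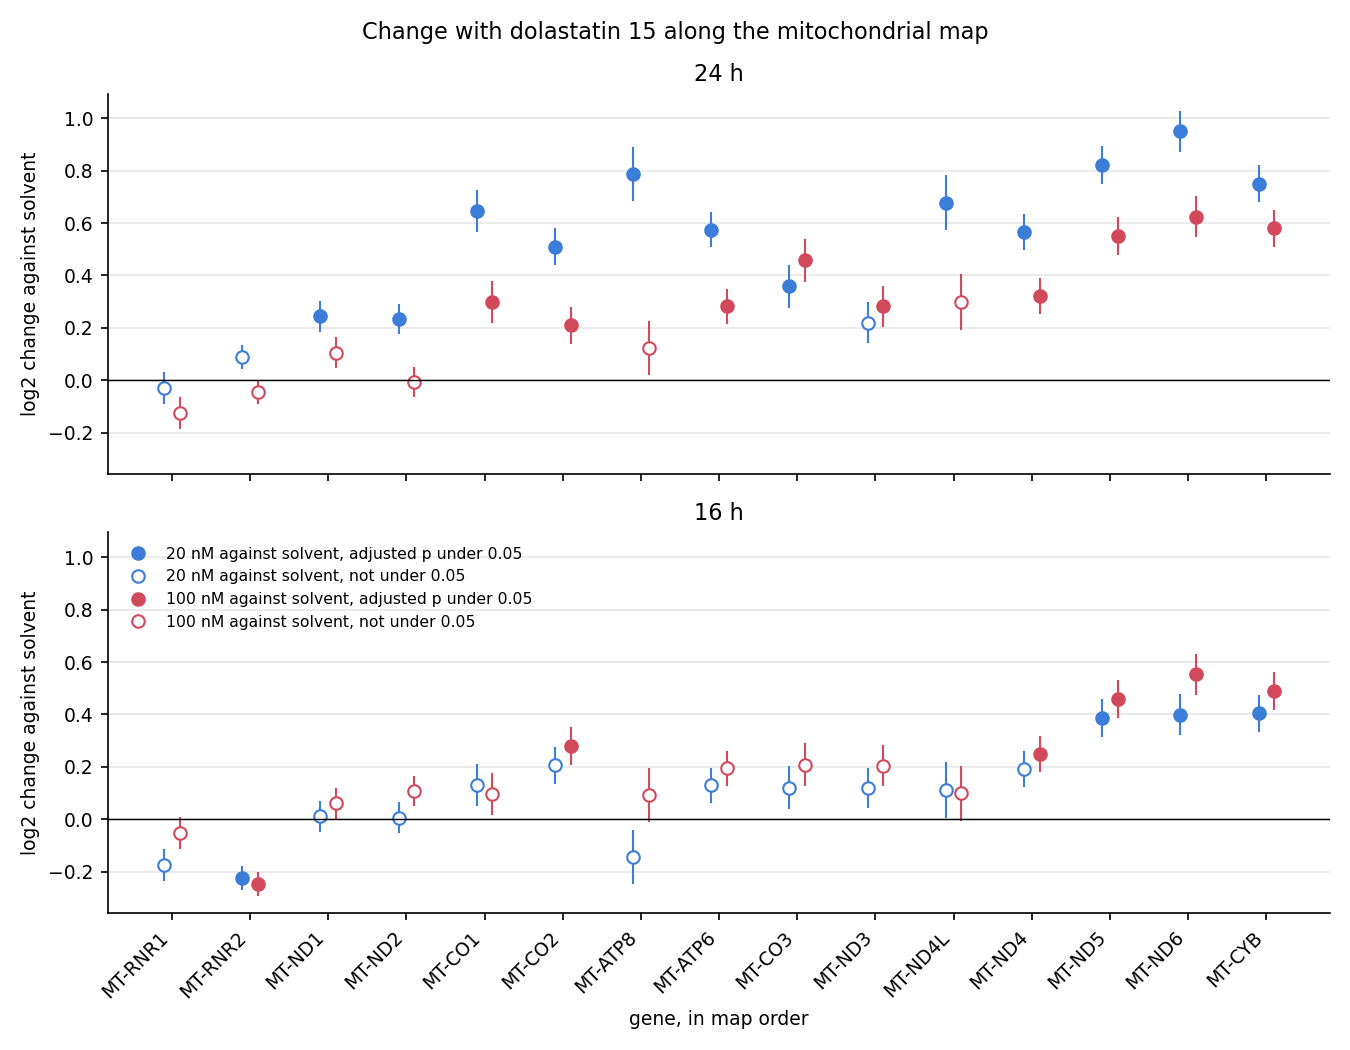
Log2 change against solvent for each gene in map order, 20 nM in blue and 100 nM in red, at 24 h (top) and 16 h (bottom). Bars are standard errors from limma and filled points have an adjusted p under 0.05. MT-ND5, MT-ND6 and MT-CYB are filled at both doses and times, with values from 0.39 to 0.95.

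The ratio of the last to the first heavy-strand mRNA is free of the scaling of a library, since both genes come from it. MT-CYB over MT-ND1 was 0.865 ± 0.017 in solvent, 1.23 ± 0.113 at 20 nM and 1.201 ± 0.014 at 100 nM at 24 h (SD, n = 2 each). The same ratio at 16 h was 0.710 ± 0.007 in solvent, 0.932 ± 0.012 at 20 nM and 0.956 ± 0.033 at 100 nM. Treated libraries were above both solvent libraries at each time. Solvent libraries at 24 h (0.852 and 0.877) were above those at 16 h (0.715 and 0.705). With 2 libraries a group, an exact permutation test of a single ratio cannot pass, so none is given.

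**Figure D5:**
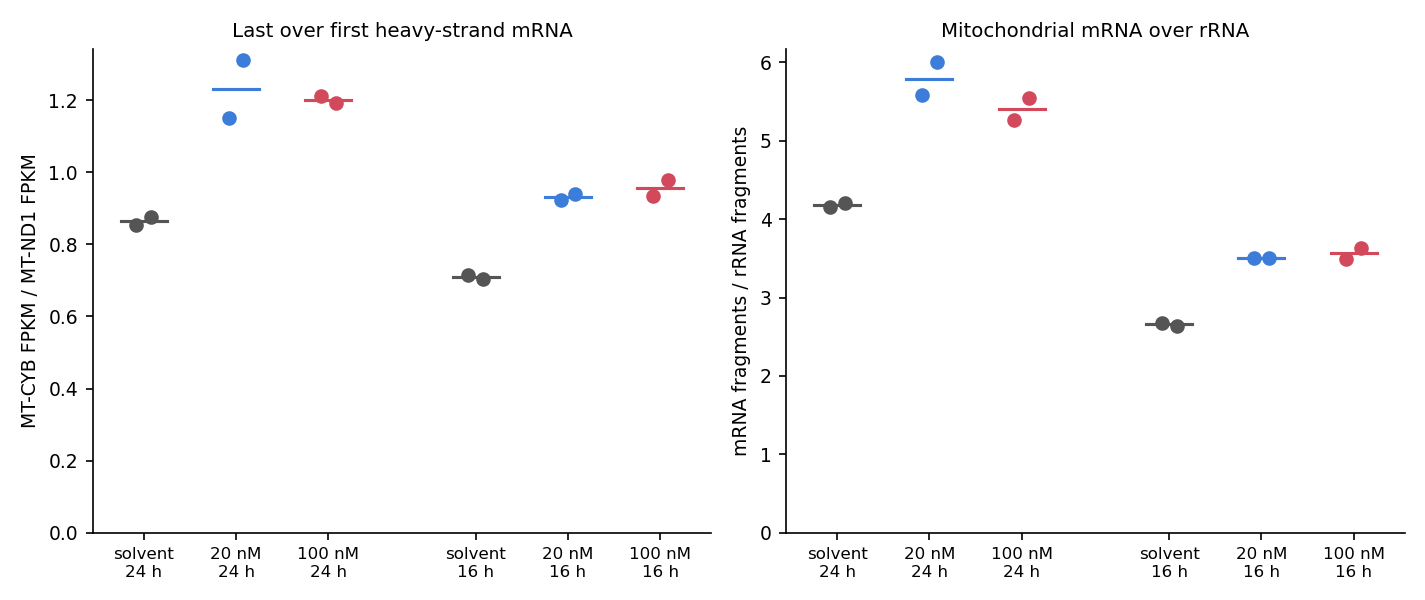
Left, MT-CYB over MT-ND1 FPKM; right, fragments of the 13 mitochondrial mRNAs over fragments of the 2 rRNAs. Points are libraries and lines are means of 2. At each time the treated points lie above the solvent points in both panels, at 1.15 to 1.31 against 0.852 and 0.877 for the first ratio at 24 h.

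Neither rRNA rose in any comparison with solvent. MT-RNR2, the RNA of the large ribosomal subunit (chrM:1671-3229), stood at 6994 and 7272 FPKM in solvent, 7729 and 7454 FPKM at 20 nM and 6793 and 7028 FPKM at 100 nM at 24 h, and neither change passed (log2 0.09 and -0.05). In the 16 h libraries it had 11479 and 12221 FPKM in solvent, 10074 and 10206 FPKM at 20 nM and 9733 and 10230.3 FPKM at 100 nM. It fell there, with log2 changes of -0.22 at 20 nM (SE 0.05, limma, adjusted p = 0.0114) and -0.25 at 100 nM (SE 0.05, adjusted p = 0.0052). Of all tested genes, 11% were called lower at 20 nM and 14.7% at 100 nM. The call at 20 nM ended without library 1, 2 or 6 (adjusted p 0.0598 to 0.0797), and both ended with no filter on low values. MT-RNR1, the RNA of the small subunit (chrM:648-1601), had log2 changes of -0.03 at 20 nM and -0.13 at 100 nM at 24 h, and of -0.18 and -0.05 at 16 h, none of which passed. With a common FPKM sum it passed at 24 h at both doses (-0.22 and -0.22, adjusted p = 0.0189 at 20 nM and 0.0183 at 100 nM), and MT-RNR2 passed at 100 nM (-0.14, adjusted p = 0.031).

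Fragments of mRNA per fragment of rRNA numbered 4.18 ± 0.0412 in solvent, 5.79 ± 0.297 at 20 nM and 5.41 ± 0.195 at 100 nM at 24 h (SD, n = 2 each). At 16 h they numbered 2.66 ± 0.0206 in solvent, 3.51 ± 0.00143 at 20 nM and 3.563 ± 0.1 at 100 nM. Treated and solvent libraries did not overlap at either time. On the FPKM scale, where the short mRNAs weigh more, the same ratio was 14.9 in solvent, 22.8 at 20 nM and 18.3 at 100 nM at 24 h, and 10.4 in solvent, 12.05 at 20 nM and 12.6 to 13.4 at 100 nM at 16 h.

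Between the solvent groups, the rRNAs had the largest changes of the 15 tested members. MT-RNR1 stood at 3376 and 3457 FPKM at 24 h, against 6216 and 6889 FPKM at 16 h (log2 change -0.94, SE 0.06, limma, adjusted p = 0.000327). MT-RNR2, whose values are given above, changed by -0.73 (SE 0.05, adjusted p = 0.000301). Both calls held without each single library, and treated cultures had the same order, with MT-RNR1 at 3118 to 3488 FPKM in the 4 treated libraries at 24 h, against 5761 to 6585 FPKM in the 4 at 16 h. Of the mRNAs, 2 of 13 fell, 0 rose and 11 did not pass, where 5.62% of all tested genes were called, 3.14% higher and 2.47% lower. These were MT-ND1 (log2 change -0.40, SE 0.06, adjusted p = 0.0135) and MT-ND3 (-0.47, SE 0.08, adjusted p = 0.0159). Both ended without library 5, 6, 11 or 12 (adjusted p 0.0677 to 0.0941), and MT-ND3 was at -0.04 with the division by effective length taken back (adjusted p = 0.864). The rRNA share of mapped fragments was 1.11% ± 0.0226 at 24 h, against 1.86% ± 0.120 at 16 h (SD, n = 2 each), while the mRNA share was 4.63%, against 4.94% (means of 2 libraries).

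On the FPKM scale at 24 h, the mRNAs were mostly lower at 100 nM than at 20 nM, with calls that depended on the setting. Of 13, 0 were called higher, 5 were called lower and 8 did not pass, where 4.88% of all tested genes were called, 1.82% higher and 3.06% lower. The log2 changes were -0.66 for MT-ATP8 (SE 0.10, limma, adjusted p = 0.0132), -0.35 for MT-CO1 (SE 0.08, adjusted p = 0.0455), -0.33 for MT-ND6 (SE 0.08, adjusted p = 0.0499), -0.30 for MT-CO2 (SE 0.07, adjusted p = 0.0488) and -0.29 for MT-ATP6 (SE 0.07, adjusted p = 0.0456). MT-ATP8 was at -0.00 with the division taken back (adjusted p = 0.998). No member passed between these groups with the division taken back, with no filter on low values or with that time alone. With a common FPKM sum, median-of-ratios scaling or a constant prior, 1 member passed. The MT-ATP8 call ended without library 8 or 9 (adjusted p 0.0748 to 0.0945). MT-CO1 and MT-ATP6 ended without library 1, 2, 5, 6 or any of 8 to 12, MT-CO2 without any of libraries 1 to 4 and 8 to 12, and MT-ND6 without any of libraries 1 to 10 (adjusted p 0.0517 to 0.253). MT-CO3 and MT-ND3 were at 0.10 and 0.06 and did not pass. At 16 h no member passed with limma between the doses (0.320% of all tested genes were called, 0.0446% higher and 0.275% lower), and 1 mRNA, MT-ATP8, had an unadjusted p under 0.05. The log2 changes of the mRNAs there ran from -0.03 to 0.24.

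Whether the effect of a dose differed between the times was tested directly. For 20 nM, the log2 change against solvent was higher at 24 h than at 16 h for 7 mRNAs and for MT-RNR2, which was at 0.09 at 24 h, against -0.22 at 16 h (11.5% of all tested genes were called, 7.06% higher and 4.46% lower), and no member was called lower. MT-ND6 had a log2 change of 0.95 at 24 h, against 0.40 at 16 h, a difference of 0.55 (SE 0.11, limma, adjusted p = 0.0155). MT-CO1 had 0.65, against 0.13 (difference 0.52, SE 0.11, adjusted p = 0.0219), and MT-ATP6 had 0.57, against 0.13 (difference 0.45, SE 0.10, adjusted p = 0.0201). The MT-ND6 call ended without library 1, 2, 5 or 11 (adjusted p 0.0505 to 0.0587), that of MT-CO1 without library 1, 2, 6, 8 or 11 (0.0502 to 0.0787) and that of MT-ATP6 without library 1, 2, 5, 6 or 11 (0.053 to 0.0726). With the division by effective length taken back, the differences were 0.29 for MT-ND6 (adjusted p = 0.147) and 0.29 for MT-ATP6 (adjusted p = 0.113), and with a common FPKM sum 0.33 for MT-CO1 (adjusted p = 0.0593) and 0.25 for MT-ATP6 (adjusted p = 0.0651). None of the 8 passed with no filter on low values. For 100 nM no member passed with limma (10.2% of all tested genes were called, 5.87% higher and 4.29% lower), and of the members MT-RNR2 alone had an unadjusted p under 0.05 (difference 0.20, SE 0.06, adjusted p = 0.0829). The differences of the mRNAs ran from -0.11 to 0.25.

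Nuclear copies of mitochondrial genes took a small share of the signal. Of 407 such genes, 60 had a value above 0 in any library and 6 averaged at least 1 FPKM, and together they amounted to 0.361% to 0.494% of the mitochondrial FPKM sum. MTATP6P1 (chromosome 1, 633696 to 634376), which differs from MT-ATP6 at 10 of 681 bases (98.5% identity), was listed at 419 to 727 FPKM, 3.47% to 5.10% of MT-ATP6. MTND2P28 (98.4% identity) was listed at 238 to 359 FPKM, 3.39% to 4.61% of MT-ND2. MTATP8P1, printed above, was listed at 15.9 FPKM in library 1 and 13.7 FPKM in library 10 and at 0 in the others. If each of those values stood for 1 fragment, the effective length would be 1.63 nt in library 1 and 1.91 nt in library 10. The estimates for MT-ATP8, of the same 207 nt, were 2.355 and 2.434 nt there with normal lengths. With lognormal lengths they were 1.004 and 1.29 nt. Stretches of 100 nt identical between a member and a nuclear copy made up 27.9% of all such stretches in MT-CO1, 26.1% in MT-ND2, 11.9% in MT-ATP6 and 11% in MT-ND1. They made up 4.4% in MT-CO3 and 2.4% in MT-CO2, and there were none in the other 9 genes, MT-ND5, MT-ND6, MT-CYB and the rRNAs among them. Fragments with both reads within such stretches cannot be told apart from those of a copy, and their share was not estimated.

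Of 74 nuclear subunit genes of complexes I, III, IV and V, 17 rose, 3 fell and 54 did not pass at 20 nM and 24 h, and 28 rose, 2 fell and 44 did not pass at 100 nM and 24 h. Of all tested genes, 14.7% rose and 14.1% fell at 20 nM and 24 h, and 15.4% rose and 18.4% fell at 100 nM and 24 h. The median log2 changes of the 74 were 0.09 and 0.13, beside 0.00 and -0.02 for all tested genes. A common FPKM sum lowered the median log2 change of all tested genes at 24 h, so the shares above do not apply under it. The shares called under it are not given here, so the counts under it show a dependence on scaling only. The splits of the 74 depended on scaling: with a common FPKM sum, 4 rose and 17 fell at 20 nM, and 4 rose and 5 fell at 100 nM. They depended on single libraries as well: at 20 nM and 24 h, 10 rose without library 7, 6 without library 11 and 11 without library 12. At 100 nM and 24 h, 8 rose without library 9, 10 without library 10, 13 without library 11 and 13 without library 12. With that time alone, 10 rose at 20 nM and 12 at 100 nM. At 16 h the counts were 4 higher, 3 lower and 67 not passed at 20 nM. At 100 nM and 16 h they were 2 higher, 2 lower and 70 not passed. Beside these, 6.78% of all tested genes rose and 11% fell at 20 nM and 16 h. The shares at 100 nM and 16 h were 9.16% higher and 14.7% lower. The 4 higher became 2, 1 and 0 without library 1, 2 and 5, and the 2 higher became 0 without library 3, 5 or 6. ATP5MD, a small ATP synthase subunit, rose at 24 h by 0.53 at 20 nM (log2, SE 0.05, limma, adjusted p = 0.000182) and by 0.26 at 100 nM (SE 0.05, adjusted p = 0.00394). COX8A, a complex IV subunit, fell at 20 nM and 24 h (-0.25, SE 0.06, adjusted p = 0.0142), a call that ended without library 8 or 11 (adjusted p 0.0647 to 0.0979).

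Of 18 genes of mitochondrial transcription and DNA replication, 7 rose, 0 fell and 11 did not pass at either dose at 24 h, and 4 rose, 1 fell and 13 did not pass at either dose at 16 h. Of all tested genes, 14.7% rose at 20 nM and 15.4% at 100 nM at 24 h, and 6.78% and 9.16% at 16 h. The shares that fell were 14.1% at 20 nM and 18.4% at 100 nM at 24 h, and 11% and 14.7% at 16 h. Without library 11, 3 rose at 20 nM and 4 at 100 nM at 24 h, and without library 9, 3 rose at 100 nM. At 16 h, 0 rose at 20 nM without library 1 and 1 without library 2, 5 or 6, and 2 rose at 100 nM without library 3 or 4. TFB2M, which opens promoter DNA, stood at 25.9 and 26.6 FPKM in solvent, 34.0 and 32.4 FPKM at 20 nM and 37.4 and 34.2 FPKM at 100 nM at 24 h. It rose in all 4 comparisons, by log2 changes of 0.33 at 20 nM (limma, adjusted p = 0.00363) and 0.43 at 100 nM (adjusted p = 0.000716) at 24 h, and of 0.29 (adjusted p = 0.00942) and 0.32 (adjusted p = 0.00434) at 16 h. The 20 nM call at 16 h ended without library 1, 2 or 6 (adjusted p 0.0516 to 0.0633). TFAM, which packs the genome and starts its transcription, rose at 24 h at 20 nM (0.24, adjusted p = 0.0173, ended without library 7, 11 or 12, adjusted p 0.0636 to 0.0856) and at 100 nM (0.29, adjusted p = 0.00667). The TFB2M call at 20 nM and 24 h and both TFAM calls ended with a common FPKM sum (log2 changes 0.15, 0.06 and 0.19). With that scaling the list counts at 24 h were 1 higher and 3 lower at 20 nM and 2 higher and 0 lower at 100 nM. The scaling lowered the median log2 change of all tested genes as well, so the shares above do not apply to these counts. Matching shares are not given here, and the counts show a dependence on scaling only. POLRMT had log2 changes from -0.01 to 0.20 and passed in none.

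Of 38 genes of mitochondrial RNA processing, modification and decay, 11 rose, 2 fell and 25 did not pass at 20 nM and 24 h, and 14 rose, 3 fell and 21 did not pass at 100 nM and 24 h. At 16 h, 3 rose, 4 fell and 31 did not pass at 20 nM, and 6 rose, 3 fell and 29 did not pass at 100 nM. These counts stand beside 14.7% of all tested genes higher at 20 nM and 15.4% at 100 nM at 24 h. At 16 h the shares called higher were 6.78% at 20 nM and 9.16% at 100 nM. Shares called lower were 14.1% at 20 nM and 18.4% at 100 nM at 24 h. At 16 h they were 11% at 20 nM and 14.7% at 100 nM. At 100 nM and 24 h, 6 rose without library 9, 11 or 12 and 7 with that time alone. At 16 h, 0 rose at 20 nM without library 1, 2 or 6, and at 100 nM 3 rose without library 3 or 5 and 2 without library 4 or 6. With a common FPKM sum the counts at 24 h were 4 higher and 11 lower at 20 nM and 5 higher and 8 lower at 100 nM. That scaling lowered the median log2 change of all tested genes too, so the shares above do not apply to these counts. Without matching shares, which are not given here, the counts show a dependence on scaling only. LRPPRC stood at 68.7 and 67.5 FPKM in solvent, 56.3 and 61.7 FPKM at 20 nM and 52.7 and 51.4 FPKM at 100 nM at 24 h, with no overlap of treated and solvent libraries. It fell in all 4 comparisons, with log2 changes at 24 h of -0.20 at 20 nM (limma, adjusted p = 0.0122) and -0.38 at 100 nM (adjusted p = 0.000515). At 16 h they were -0.34 at 20 nM (adjusted p = 0.00189) and -0.27 at 100 nM (adjusted p = 0.00397). The first of these calls ended without library 11 (adjusted p = 0.0704) and with the libraries of that time alone (adjusted p = 0.0561). Its partner SLIRP rose at 24 h, by 0.36 at 20 nM (adjusted p = 0.000149) and by 0.35 at 100 nM (adjusted p = 0.000105). At 16 h SLIRP rose by 0.13 at 20 nM and by 0.11 at 100 nM (adjusted p = 0.0233 and 0.0333), calls that ended without any of libraries 1, 2, 5 and 6 (adjusted p 0.0721 to 0.126) and of 8 libraries (adjusted p 0.0558 to 0.157). MTPAP rose at 24 h by 0.54 at 20 nM (adjusted p = 0.000857) and by 0.38 at 100 nM (adjusted p = 0.00342). GTPBP3, a tRNA-modifying enzyme, fell at 16 h, with log2 changes of -0.73 at 20 nM (adjusted p = 0.00238) and -1.17 at 100 nM (adjusted p = 0.00012). Of the degrading enzymes, SUPV3L1 passed at 100 nM and 24 h (0.21, adjusted p = 0.0186, ended without any of libraries 9 to 12, adjusted p 0.06 to 0.0927, and with a common FPKM sum) and PNPT1 in none (-0.02 to 0.17).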

How the data were processed

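RNA of 12 libraries, 2 for each of 6 groups, was poly(A)-selected and sequenced as paired reads on an Illumina HiSeq 3000, per the labels' protocols. The authors deposited FPKM per gene and library, rounded to 2 decimals. RSEM 1.2.28 and GRCh38 are named in the submitters' processing notes, while no aligner, annotation release or strand setting is given in the sources used here. Column names hold a group and a library number, which does not map to the labels' sample numbers. Symbols, lengths and positions came from GENCODE 29.

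Depth and fragment length were estimated from low values of genes with 1 transcript of 250 to 1500 nt, of which 86.8% to 89.6% per library fell within 0.1 of a whole number of fragments, up to 6 fragments. Shares of mapped fragments are FPKM times estimated effective length. The 6 group means were fitted with limma 3.58.1 (R 4.3.3) to log2(FPKM + 1), for the 13458 genes that reached 1 FPKM in 2 or more libraries (6 residual and 2.98 prior degrees of freedom). Tests of 9 contrasts were two-sided, with Benjamini-Hochberg adjustment over all genes tested, to which every adjusted p refers, and a threshold of 0.05. The fit and the depth estimate were also run on simulated data, with noise independent between genes and normal fragment lengths. Those runs cannot check genes that move together or the tail of the fragment lengths. Named nuclear genes were LRPPRC, SLIRP, POLRMT, TFAM, TFB2M, MTPAP, PNPT1 and SUPV3L1, and examples from the largest called changes of each list. The members, the lists and these examples were chosen with earlier results of these data known. Alternatives were pseudocounts of 0.1 and 0.5, no filter or a minimum of 5 FPKM, 3 other scalings, a constant prior, fits to 1 time point, and omission of each library in turn. Taking back the division by effective length and the share of mapped fragments were chosen after the data were seen. The division was taken back with normal fragment lengths only. Python 3.11.15 made shares and figures.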

Additional observations from a re-analysis of the deposited data

Results flagged for a closer look

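A test of the difference itself found a higher log2 change at 20 nM against solvent at 24 h than at 16 h for 8 of the 15 tested members. Of all tested genes, 11.5% were called in that test, 7.06% higher and 4.46% lower. The differences in log2 change were 0.93 for MT-ATP8 (SE 0.15, limma, adjusted p = 0.0059), 0.57 for MT-ND4L (SE 0.15, adjusted p = 0.0423), 0.55 for MT-ND6, 0.52 for MT-CO1, 0.45 for MT-ATP6, 0.44 for MT-ND5 (SE 0.10, adjusted p = 0.028), 0.37 for MT-ND4 (SE 0.10, adjusted p = 0.0417) and 0.31 for MT-RNR2 (SE 0.06, adjusted p = 0.0178). Leaving out 1 library ended the MT-ND4L and MT-ND4 calls (library 1, 2, 5, 6 or any of 8 to 12, adjusted p 0.0502 to 0.132), the MT-ND5 call (library 1, 2, 5, 6, 8, 11 or 12, adjusted p 0.0519 to 0.0943) and the MT-RNR2 call (library 1, 2, 6 or 11, adjusted p 0.0563 to 0.069), but not that of MT-ATP8. The effective length of MT-ATP8 averaged 1.36 nt in the 20 nM libraries at 24 h and 2.44 nt in those at 16 h, and in solvent 2.24 nt at 24 h and 1.32 nt at 16 h. With the division by effective length taken back, the differences were -0.68 for MT-ATP8 (adjusted p = 0.138), -0.47 for MT-ND4L (adjusted p = 0.338), 0.29 for MT-ND6 (adjusted p = 0.147), 0.29 for MT-ATP6 (adjusted p = 0.113) and 0.32 for MT-ND4 (adjusted p = 0.075), and none of these 5 passed. MT-RNR2 had a log2 change of 0.09 at 24 h, against -0.22 at 16 h.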

How the results depend on the processing

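Each member was tested again in every comparison under the alternatives. Among results called on either scale, taking back the division by effective length gave the opposite sign for MT-ATP8 at 20 nM and 16 h (log2 change 0.74, adjusted p = 0.0272) and, in the change of the 20 nM effect between times, for MT-ND3 (-0.68, adjusted p = 0.0407), MT-ND4L (-0.47) and MT-ATP8 (-0.68). Results called on neither scale changed sign too, such as MT-ND3 at 20 nM and 24 h (-0.13), between solvent groups MT-ATP8 (0.35) and MT-ND4L (0.51), and between doses at 24 h MT-ND4L (0.06). It also gave 7 called members in place of 4 at 20 nM and 16 h, 4 in place of 8 for the change of the 20 nM effect and 0 in place of 5 between doses at 24 h. With no filter on low values, over 28271 genes, the counts were 3 in place of 6 at 100 nM and 16 h, 4 in place of 9 at 100 nM and 24 h, 2 in place of 4 between solvent groups, and 0 both between doses at 24 h and for the change of the 20 nM effect. The other counts between doses at 24 h were 1 with a common FPKM sum, 1 with median-of-ratios scaling, 3 with a common nuclear sum, 1 with a constant prior and 0 with that time point alone. For the change of the 20 nM effect, a common FPKM sum gave 2 and a common nuclear sum 5. With a common FPKM sum the median log2 change of all genes at 24 h was -0.16 at 20 nM and -0.11 at 100 nM, in place of 0.00 and -0.02. Leaving out each library in turn, an arm of 1 being taken to vary like the others, gave 9 to 13 called members at 20 nM and 24 h, 4 to 10 at 100 nM and 24 h, 1 to 5 at 20 nM and 16 h, 4 to 8 at 100 nM and 16 h, 0 to 7 between doses at 24 h, 2 to 6 between solvent groups and 1 to 9 for the change of the 20 nM effect. Between doses at 16 h and for the change of the 100 nM effect it gave 0 to 0.

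The mean mitochondrial share of 21.6% of the FPKM sum became 13.4% without MT-ATP8, 5.34% weighted by annotated length, and 6.98% or 6.92% of mapped fragments (normal or lognormal lengths), with 21.26% to 21.97% when 1 library was left out. The mean ratio of mRNA to rRNA of 15.2 became 8.07, 6.14, 4.18 and 4.17 in the same order, with 14.5 to 15.7 when 1 library was left out. No paired analysis was possible because the columns do not carry the sample numbers of the labels. At 28.4 M to 41.9 M fragments, counting error was small for the members, and the fragment length tail limits the 3 shortest.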
